A study of Mus musculus with 6 samples.

Results

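The mRNA levels of 66 genes of mitochondrial transport were examined in D4 embryoid bodies (EBs) of 2 mouse lines that both lack functional EVX1. The genes were taken by symbol, as every listed gene whose name starts with *Slc25a* and a digit, *Timm* or *Tomm*, and made up 66 of the 15266 listed genes. They comprise 43 *Slc25a* genes, most of them for carriers of the inner membrane, and 14 *Timm* and 9 *Tomm* genes, nearly all of them for import of proteins.

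Both lines were derived by CRISPR-Cas9 editing from W9.5 mESCs and grown as EBs for 4 days in serum-containing medium without LIF. EVX1-Δfs, clone 14, carries a small frameshifting deletion on each *Evx1* allele, in the part of exon 2 that encodes the homeodomain, and still transcribes *Evx1* and its antisense lncRNA *Evx1as*. Del#3 (*Evx1/Evx1as*Δ2.6kb) carries a larger deletion that takes away the start sites of both genes and further *Evx1as* exons. Comparing the lines asks whether loss of *Evx1as* changes expression beyond the loss of EVX1 that they share, and non-edited EBs were not analysed here. Each line had 3 libraries, numbered 1 to 3. Per the methods, differentiations to be compared were begun together, and replicates were begun on different days. Libraries of the same number are therefore taken below as 1 day, which the labels do not state. The EVX1-Δfs samples come from 1 clone, the differentiations are replicates of culture and not of clone, and an effect of clone cannot be told apart from an effect of the deletion.

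Nearly all mitochondrial proteins are encoded in the nucleus and made in the cytosol. They enter through the TOM complex of the outer membrane. The TIM23 complex then takes up proteins with a cleavable presequence, while small TIM chaperones pass carrier proteins across the intermembrane space to the TIM22 complex, which inserts them into the inner membrane. The SLC25 carriers are therefore themselves clients of this machinery, and exchange nucleotides, phosphate, organic acids, amino acids, cofactors and iron between the cytosol and the matrix. Here only mRNA was measured, not protein, import or transport.

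The 6 libraries held between 9024579 and 15699124 reads on listed genes. *Evx1* had 4023, 3132 and 2582 reads in EVX1-Δfs and 48, 28 and 31 in Del#3, and *Evx1as*, listed as 5730457N03Rik, had 879, 588 and 571 against 21, 22 and 30, so the Del#3 libraries matched their label. Counts per gene cannot show the frameshifts of EVX1-Δfs, and that label was not checked. The 8 markers of primitive streak and mesoderm, such as *T* and *Mixl1*, summed to between 11119 and 14078 normalized counts in every library. The sum hides differences of both signs, with 5 negative and 3 positive log2 fold changes, from -0.27 for *Mesp1* to 0.48 for *Hand1*. The median log2 fold change was -0.10 for these markers and -0.11 for 7 endoderm markers tested. It was 0.051 for 8 blood and endothelium markers and -0.13 for 2 neural markers tested. All 7 pluripotency markers had a negative log2 fold change in Del#3 against EVX1-Δfs, with a median of -0.37, and their summed level ranged from 12788 to 14948 normalized counts in EVX1-Δfs and from 9537 to 14038 in Del#3. None of the marker lists had a gene past the threshold, and their part in the values below was not tested. In bulk EBs, fewer cells of a type and less RNA per cell cannot be told apart.

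Of the 66 genes, 61 had enough reads to be tested, including all 14 *Timm* and all 9 *Tomm* genes and 38 of 43 *Slc25a* genes. None of the 61 differed between Del#3 and EVX1-Δfs after Benjamini-Hochberg adjustment over all 12891 genes tested by limma, where the smallest adjusted p among them was 0.999998. Across all genes tested, 0.0155% passed that threshold, namely *Evx1* and *Evx1as*. At an unadjusted p under 0.05, 1 of the 61 was below it, *Slc25a17*, or 1.64% against 1.03% of all genes tested. With the day of differentiation as a replicate block in limma, 0 of 61 passed after adjustment, against 0.0233% of all genes, and 2 of 61, *Slc25a17* and *Tomm5*, had an unadjusted p under 0.05. That is 3.28% against 4.62% of all genes, and the difference between these shares was not tested.

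How large a change could have been missed is given by the intervals. The 95% interval of the fold change lay within a 2-fold change either way for 39 of the 61 genes, or 63.9%, against 61.1% of all genes tested, and with the replicate block for 51, or 83.6%, against 76.2%. A change of 2-fold or more was therefore outside the interval for most of these genes.

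**Figure D1:**
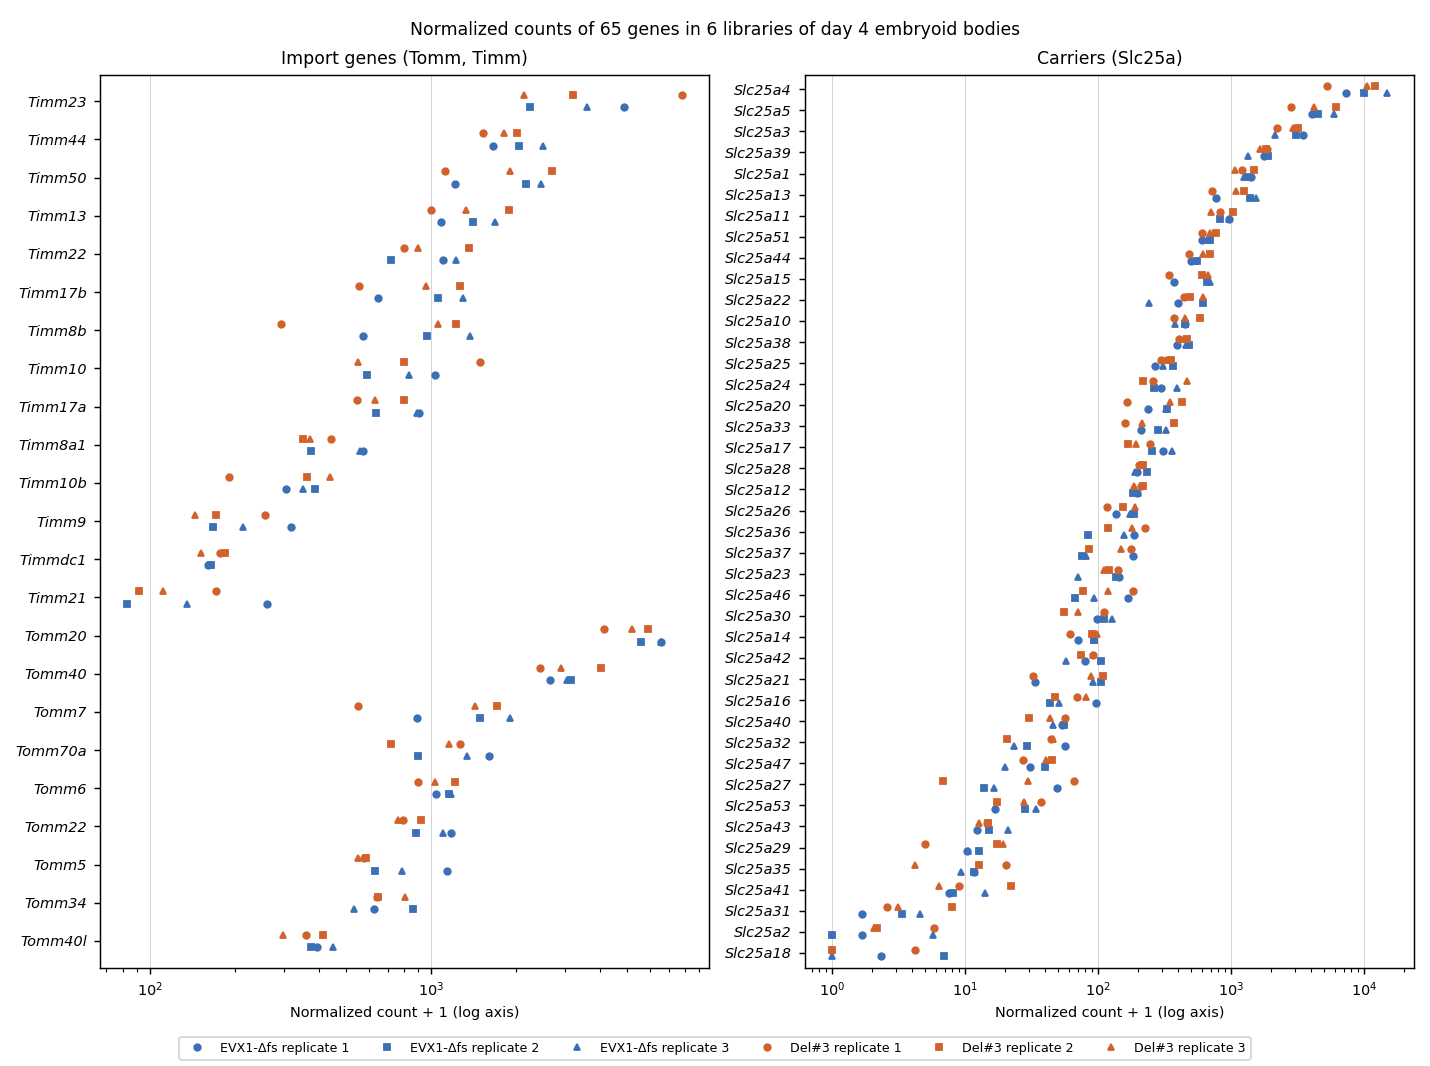
Normalized counts plus 1 (log axis) of 65 of the 66 genes in each of the 6 libraries, with *Tomm* and *Timm* genes on the left and *Slc25a* genes on the right. Blue is EVX1-Δfs, orange is Del#3, and circles, squares and triangles are replicates 1, 2 and 3. Blue and orange symbols overlap for every tested gene shown except *Slc25a17* and *Tomm5*.

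The promoters of 4 genes are shown from 250 bases before to 50 bases after the start site, read from RefSeq on build GRCm38.p6. *Slc25a17* and *Tomm5* were chosen as the genes whose libraries did not overlap between the lines. *Timm8b* was chosen as a gene called by a limma test of days, described below, whose calls were not stable. *Tomm22* was chosen as a TOM receptor with several matches to a motif of GABPA. GABPA, also called NRF2, is an ETS factor known for activating nuclear genes of the mitochondrion. Capitals mark its motif CCGGAAG on either strand, which reads CTTCCGG on the other strand.
*Slc25a17*, chr15:81360716-81361015, minus strand: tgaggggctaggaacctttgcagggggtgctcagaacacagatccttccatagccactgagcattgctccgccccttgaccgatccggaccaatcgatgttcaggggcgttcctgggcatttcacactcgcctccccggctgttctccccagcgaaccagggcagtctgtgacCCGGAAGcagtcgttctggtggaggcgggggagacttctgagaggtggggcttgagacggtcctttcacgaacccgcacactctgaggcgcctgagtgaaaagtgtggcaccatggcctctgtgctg
*Tomm5*, chr4:45108064-45108363, minus strand: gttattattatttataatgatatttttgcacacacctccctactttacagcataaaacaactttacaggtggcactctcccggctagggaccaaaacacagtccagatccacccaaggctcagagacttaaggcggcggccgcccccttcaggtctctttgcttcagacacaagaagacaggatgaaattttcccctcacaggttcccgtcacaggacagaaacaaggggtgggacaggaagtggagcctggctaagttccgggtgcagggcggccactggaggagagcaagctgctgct
*Timm8b*, chr9:50603651-50603950, plus strand: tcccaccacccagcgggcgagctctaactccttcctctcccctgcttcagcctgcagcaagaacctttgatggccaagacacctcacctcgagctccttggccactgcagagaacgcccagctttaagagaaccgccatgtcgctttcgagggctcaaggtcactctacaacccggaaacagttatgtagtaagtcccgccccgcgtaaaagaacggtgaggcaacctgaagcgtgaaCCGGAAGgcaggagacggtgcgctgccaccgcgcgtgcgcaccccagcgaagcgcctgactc
*Tomm22*, chr15:79670618-79670917, plus strand: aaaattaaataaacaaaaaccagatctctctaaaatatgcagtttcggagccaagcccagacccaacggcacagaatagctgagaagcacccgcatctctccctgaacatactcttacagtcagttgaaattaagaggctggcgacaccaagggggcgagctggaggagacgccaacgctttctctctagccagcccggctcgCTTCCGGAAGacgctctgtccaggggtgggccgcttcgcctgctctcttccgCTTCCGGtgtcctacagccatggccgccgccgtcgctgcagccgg

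The *Slc25a17* promoter had 1 match, beginning 77 bases before the start site, and that of *Timm8b* had 1, beginning 12 bases before it. The *Tomm22* promoter had 3, of which the earliest begins 47 bases before the start site and overlaps the next on the other strand, because the run CTTCCGGAAG reads the same on both strands. No match was found in the *Tomm5* window, which says only that these letters are not in it.

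A promoter was found for 52 of the 66 genes. The GABPA motif was present for 14 of the 52, or 26.9%, among them *Slc25a3*, *Slc25a4*, *Timm10*, *Timm23*, *Tomm34* and *Tomm70a*. It was present for 19.5% of the tested genes with a promoter in the same table. Counted by promoter and not by gene, it was in 15 of 64 promoters of these genes, or 23.4%, against 8.86% of all 32851 promoters. By family, it was found for 3 of 7 *Tomm*, 5 of 13 *Timm* and 6 of 32 *Slc25a* genes. The motif GCGCATGC of NRF1, another activator of nuclear genes for the mitochondrion, was present for 2 of 52, *Timm13* and *Slc25a31*, which was not tested. That is 3.85%, against 6.12% of the tested genes with a promoter. By promoter it was 3.12%, against 2.71% of all promoters. The YY1 motif AAGATGG was present for 5 of 52, or 9.62%, against 8.22% of the tested genes with a promoter. By promoter it was 7.81%, against 6.34% of all promoters. Both of these motifs were searched on both strands, and a match is a description of the sequence, not a bound site.

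The TOM complex is the entry gate of the outer membrane. The 9 *Tomm* genes, which besides its subunits and receptors include the paralogue *Tomm40l* and *Tomm34*, a cytosolic co-chaperone, had a median log2 fold change of -0.29 in Del#3 against EVX1-Δfs, where all genes tested had a median of 0.0022, and 7 of the 9 values were negative, but none passed the test. Taken by day, the median of the 9 was -0.35 on the day of replicate 1, 0.069 on that of replicate 2 and -0.34 on that of replicate 3, so the sign was not the same on every day. Without EVX1-Δfs replicate 3 the median of the 9 was -0.12, and without Del#3 replicate 1 it was -0.17.

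*Tomm20* encodes the receptor that binds presequences. It had 6580, 5602 and 6560 normalized counts in EVX1-Δfs and 4133, 5900 and 5173 in Del#3. The replicate 2 value of Del#3 lay above the lowest EVX1-Δfs value, so the groups overlapped. Its log2 fold change was -0.31 (SE 0.23, limma, adjusted p = 0.999998).

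*Tomm22* is the central receptor, which joins the other subunits. It had 1175, 884 and 1098 normalized counts in EVX1-Δfs and 793, 922 and 765 in Del#3, with a log2 fold change of -0.34 (SE 0.23). The highest Del#3 value and the lowest EVX1-Δfs value crossed. *Tomm70a*, the receptor for carrier precursors, had 1612, 897 and 1340 in EVX1-Δfs and 1267, 719 and 1161 in Del#3, and was lower in Del#3 on each of the 3 days by 0.35, 0.32 and 0.21 on the log2 scale. The spread between days was wider than this, since both lines were lowest in replicate 2.

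*Tomm40*, the channel of the complex, had 2649, 3137 and 3055 normalized counts in EVX1-Δfs and 2444, 4008 and 2889 in Del#3, a log2 fold change of 0.05 (SE 0.24). The groups overlapped. Its paralogue *Tomm40l* ranged from 297 to 445 over the 6 libraries.

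Among the small subunits, *Tomm5* had 1135, 633 and 788 normalized counts in EVX1-Δfs and 575, 584 and 548 in Del#3. All 3 Del#3 values lay below all 3 EVX1-Δfs values, and the Del#3 values were close together while EVX1-Δfs replicate 1 stood far above its group. The log2 fold change was -0.54 (SE 0.26, limma, adjusted p = 0.999998, and 0.992 with the replicate block), and its 95% interval was -1.12 to 0.041, or -1.0 to -0.078 with the block. Taken by day it was -0.98, -0.12 and -0.52, and without EVX1-Δfs replicate 1 it was -0.31. *Tomm6* ranged from 901 to 1212 over the libraries, a log2 fold change of -0.11 (SE 0.22). *Tomm7* followed the day, and is described with the other genes that did.

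All 3 Del#3 libraries lay below all 3 EVX1-Δfs libraries for 2 of the 61 genes, *Tomm5* and *Slc25a17*, or 3.28%, against 1.8% of all genes tested. For 0 of the 61 did all Del#3 libraries lie above, against 1.71% of all genes.

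**Figure D2:**
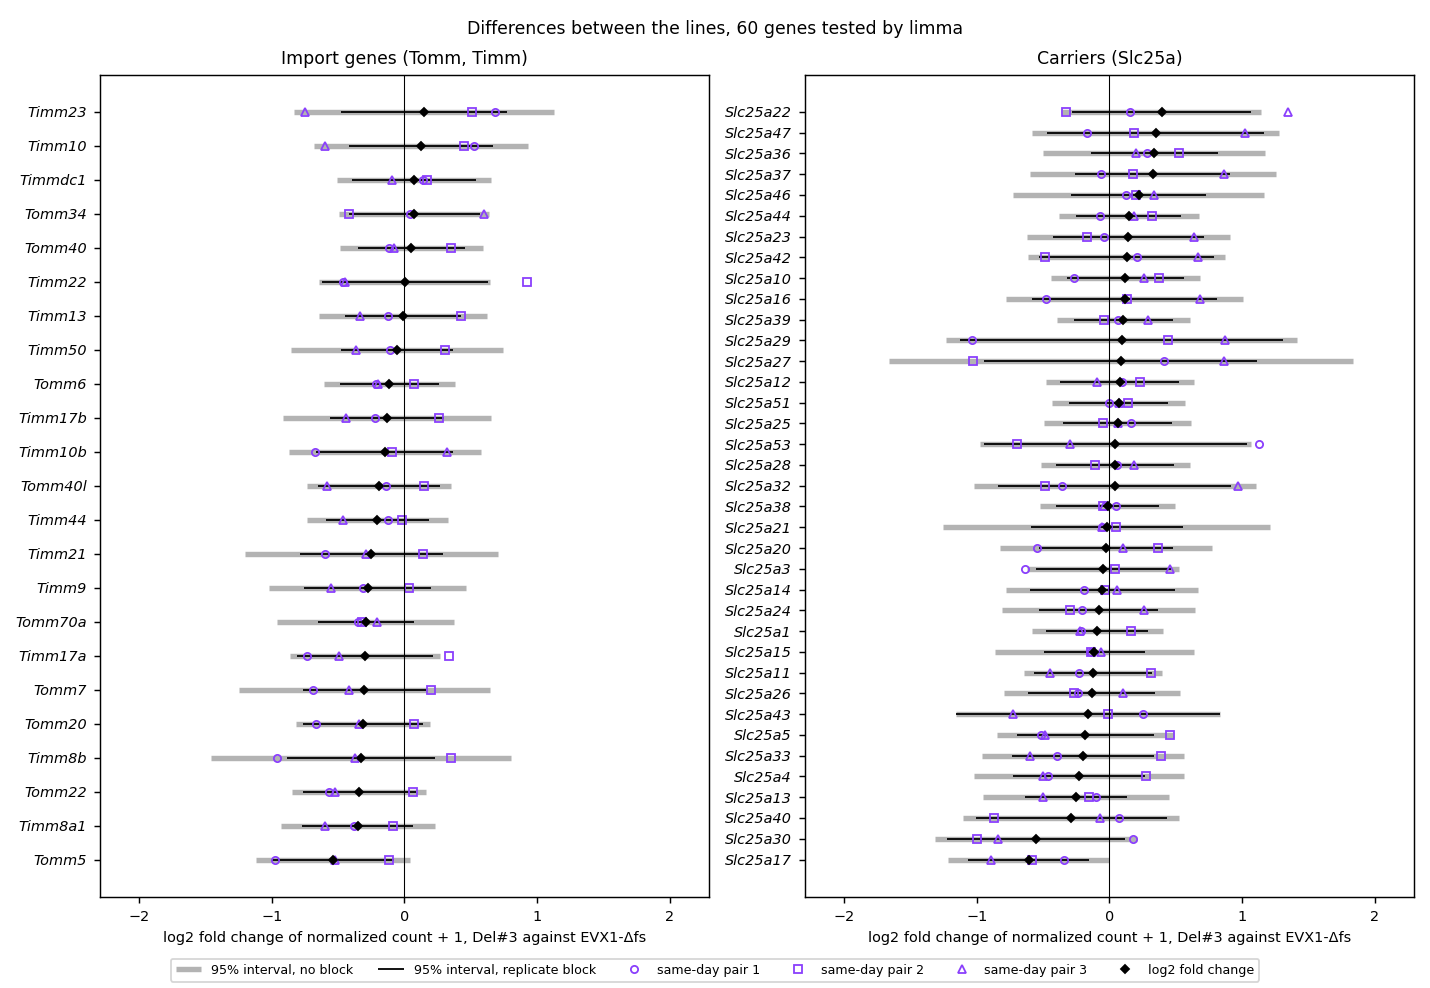
Log2 fold change of the normalized count plus 1 in Del#3 against EVX1-Δfs for 60 of the 61 genes tested, ordered by value, with import genes on the left and carriers on the right. Grey and black lines are 95% intervals without and with the replicate block, diamonds the fold change, and open symbols the 3 same-day differences. The values ran from -0.61 for *Slc25a17* to 0.39 for *Slc25a22*, and every grey interval except that of *Slc25a17* spanned 0.

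The 6 genes of the TIM23 complex had a median log2 fold change of -0.17, with 5 negative values and none past the threshold. *Timm23*, the channel subunit, had 4844, 2251 and 3594 normalized counts in EVX1-Δfs and 7793, 3206 and 2133 in Del#3. Replicate 1 was the highest library in both lines, and the lines crossed by day, with Del#3 above on the days of replicates 1 and 2 and below on that of replicate 3. The log2 fold change was 0.15 (SE 0.44).

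The partner channel subunit is encoded by a pair of paralogues. *Timm17a* had 907, 635 and 890 normalized counts in EVX1-Δfs and 546, 802 and 632 in Del#3, a log2 fold change of -0.30 (SE 0.26). *Timm17b* had 644, 1061 and 1294 in EVX1-Δfs and 553, 1268 and 955 in Del#3, a log2 fold change of -0.13 (SE 0.35). The libraries of the lines overlapped for both. Of the variance of *Timm17b* among the 6 libraries, 88.2% lay between days, and of that of *Timm17a*, 2.03%.

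*Timm50*, the receptor that receives presequences from TOM, had 1212, 2170 and 2459 normalized counts in EVX1-Δfs and 1124, 2683 and 1904 in Del#3, so that replicate 1 was the lowest in each line. *Timm44*, which ties the import motor to the channel, had 1666, 2058 and 2506 against 1530, 2026 and 1812. Their log2 fold changes were -0.06 (SE 0.36) and -0.20 (SE 0.24). *Timm21*, which contacts TOM, ranged from 82 to 259 and was highest in replicate 1 of each line.

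The TIM22 group, with its small TIM chaperones, had 7 genes and a median log2 fold change of -0.15. *Timm22*, the insertase for carriers, had 1100, 722 and 1225 normalized counts in EVX1-Δfs and 798, 1368 and 896 in Del#3. The values interleaved, and the log2 fold change was 0.0023 (SE 0.29). The fold on the day of replicate 2 was 0.92, while those of the other days were -0.46 and -0.45.

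*Timm9* and *Timm10* encode the partners of the main chaperone hexamer. *Timm9* had 317, 166 and 213 normalized counts in EVX1-Δfs and 255, 171 and 144 in Del#3, and *Timm10* had 1036, 590 and 834 against 1494, 804 and 549. Both were highest in replicate 1 of each line. Their log2 fold changes were of opposite sign, -0.28 (SE 0.33) and 0.12 (SE 0.36), and neither passed the test.

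The second chaperone hexamer is built from the products of *Timm8a1* or *Timm8b* with *Timm13*. *Timm8a1* had 571, 372 and 560 normalized counts in EVX1-Δfs and 439, 351 and 370 in Del#3. It was lower in Del#3 on every day, by 0.38, 0.083 and 0.60 on the log2 scale, with Del#3 replicate 1 above the lowest EVX1-Δfs library. The log2 fold change was -0.35 (SE 0.26, limma, adjusted p = 0.999998, and 0.992 with the replicate block). *Timm13* had 1085, 1404 and 1686 against 995, 1887 and 1335, a log2 fold change of -0.01 (SE 0.29) whose sign turned with the scaling of the libraries.

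*Timm10b* ranged from 190.5 to 436 normalized counts and *Timmdc1*, an assembly factor of complex I that carries the TIMM name, from 151 to 185. Over all 14 *Timm* genes the median log2 fold change was -0.14, with 10 negative values, and by day it was -0.27, 0.28 and -0.44. Without EVX1-Δfs replicate 3 it was 0.017, without Del#3 replicate 1 it was -0.026, and without Del#3 replicate 2 it was -0.25.

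The carriers showed a median log2 fold change of 0.042, with 18 negative and 20 positive values among the 38 tested. Its sign turned when 1 library was left out, to -0.0047 without EVX1-Δfs replicate 1, -0.029 without Del#3 replicate 2 and -0.010 without Del#3 replicate 3. The ADP/ATP carriers, which exchange matrix ATP for cytosolic ADP, were led by *Slc25a4* and *Slc25a5*. *Slc25a4* had 7313, 9922 and 14766 normalized counts in EVX1-Δfs and 5298, 12039 and 10447 in Del#3, with replicate 1 the lowest in each line, and a log2 fold change of -0.23 (SE 0.36). *Slc25a5* had 4047, 4480 and 5906 against 2836, 6139 and 4209, with a log2 fold change of -0.18 (SE 0.30).

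*Slc25a31*, the ADP/ATP carrier known from the male germ line, had 1, 2 and 3 reads in the EVX1-Δfs libraries and 2, 6 and 2 in those of Del#3. The phosphate carrier *Slc25a3* had 3464, 3068 and 2120 normalized counts in EVX1-Δfs and 2222, 3158 and 2915 in Del#3, a log2 fold change of -0.05 (SE 0.26). Neither line was the higher on every day. Of the ATP-Mg/phosphate carriers, *Slc25a24* and *Slc25a25* ranged from 215 to 468 and from 264 to 363, and *Slc25a23* from 70 to 143.

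The 9 cofactor and nucleotide carriers held the gene with the smallest p. *Slc25a17*, the peroxisomal member of the family, which carries CoA, FAD and NAD, had 308, 251 and 357 normalized counts in EVX1-Δfs and 242, 167 and 191 in Del#3. Every Del#3 value was below every EVX1-Δfs value, although the lowest EVX1-Δfs library stood only just above the highest Del#3 one. The group means were 305 ± 53.1 and 200.2 ± 38.3 (SD, n = 3). The log2 fold change was -0.61 (SE 0.27, limma, adjusted p = 0.999998), and was -0.35, -0.58 and -0.90 taken by day. With the replicate block its adjusted p by limma was 0.873. The 95% interval of the log2 fold change was -1.07 to -0.15 with the block. Over the 17 alternatives its log2 fold change stayed between -0.75 and -0.49, and the adjusted p between 0.873 and 0.999998. The gene lies on chromosome 15 of NCBIM37, bases 81149351 to 81191195 on the minus strand.

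The other 8 cofactor and nucleotide carriers lay between -0.20 for *Slc25a33*, a pyrimidine nucleotide carrier, and 0.34 for its relative *Slc25a36*. *Slc25a51*, a carrier of NAD, had 598, 693 and 664 normalized counts in EVX1-Δfs and 598, 763 and 696 in Del#3. None of the 8 passed the test.

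Among the amino acid carriers, *Slc25a22*, a glutamate carrier, had the highest log2 fold change of all 61, at 0.39 (SE 0.34). It had 395, 609 and 240 normalized counts in EVX1-Δfs and 439, 487 and 613 in Del#3. The groups overlapped, and the value rested on the day of replicate 3, with 0.15, -0.32 and 1.35 by day; without EVX1-Δfs replicate 3 it was 0.05. The aspartate/glutamate carriers of the malate-aspartate shuttle are encoded by *Slc25a12*, which ranged from 183 to 215, and *Slc25a13*, which ranged from 716 to 1529 and was lowest in replicate 1 of each line. *Slc25a38*, the glycine carrier used for haem synthesis, ranged only from 393 to 483.

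The uncoupling protein-like carriers include *Slc25a30*, which had 97, 110 and 125 normalized counts in EVX1-Δfs and 110, 55 and 69 in Del#3. The replicate 1 values went the other way from those of replicates 2 and 3, with 0.18, -1.0 and -0.84 by day, and the log2 fold change was -0.55 (SE 0.34, limma, adjusted p = 0.999998). *Slc25a27* had 48, 13 and 15 against 65, 6 and 29, and was highest in replicate 1 of both lines. *Slc25a47*, a carrier known from liver, had 30, 39 and 19 normalized counts in EVX1-Δfs and 26, 44 and 39.5 in Del#3, a log2 fold change of 0.35 (SE 0.42), with the groups overlapping.

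The iron carriers of the inner membrane, the mitoferrins, are *Slc25a37*, the form best known from red cell precursors, and *Slc25a28*. *Slc25a37* had 182, 75 and 80 normalized counts in EVX1-Δfs and 175, 85 and 147 in Del#3, and *Slc25a28* stayed between 187 and 232. *Slc25a39*, a carrier of glutathione, ranged from 1335 to 1876, and *Slc25a20*, the carnitine/acylcarnitine carrier, from 163 to 426. Of the di- and tricarboxylate carriers, *Slc25a1*, which exports citrate, ranged from 1075 to 1484, *Slc25a11*, the oxoglutarate carrier, from 703 to 1023, and *Slc25a10* from 372 to 581.

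The 5 genes that were not tested are all carriers with 0 to 24 reads per library. *Slc25a18*, a second glutamate carrier, had 2, 5 and 0 reads in EVX1-Δfs and 4, 0 and 0 in Del#3, and *Slc25a2*, an ornithine carrier, had 1, 0 and 4 against 6, 1 and 1. A count of 0 allows up to 0.332 RPM in EVX1-Δfs replicate 2 and up to 0.314 in EVX1-Δfs replicate 3, and up to 0.308 and 0.306 in Del#3 replicates 2 and 3. *Slc25a35* had 16, 9 and 7 reads against 24, 10 and 3, and *Slc25a41*, an ATP-Mg/phosphate carrier, 10, 6 and 11 against 10, 18 and 5. *Slc25a29*, the tested gene with the fewest reads, had 9, 12 and 9 normalized counts against 4, 16 and 18. No difference between the lines was detected for these genes.

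Levels were compared between genes in RPKM, which sets the reads against exon length and the total reads of the library, for the 65 genes with a match in the annotation. *Slc25a4* was the highest with a mean RPKM of 394, from 300.0 to 556 in EVX1-Δfs and from 231 to 453 in Del#3. *Tomm20* followed at 377, with libraries between 301 and 451, and these neighbours did not differ beyond their spread. *Slc25a5* had a mean of 261, *Timm23* 213, *Timm8b* 160 and *Tomm7* 110, again with overlapping ranges from each gene to the next. Within libraries, *Tomm20* was above *Slc25a5*, and *Timm8b* above *Tomm7*, in all 6.

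The paralogues of a pair were often far apart in RPKM. *Tomm40* had a mean of 67.0 and *Tomm40l* of 10.7, and *Slc25a13* of 33.4 and *Slc25a12* of 2.54, without overlap in any library. *Timm17a* at 43.8 and *Timm17b* at 35.0 overlapped, and *Slc25a28* at 12.9 was above *Slc25a37* at 2.85 in every library. The ADP/ATP carrier *Slc25a31* was at 0.162. Annotated exon length differs from the length transcribed, which limits these comparisons, and 11 of the 65 genes have further near-identical copies in the genome, including 9 for *Tomm20*, 4 for *Timm23* and 2 each for *Slc25a5*, *Tomm22* and *Tomm5*. Reads of these genes may have been lost or shared, so their levels are uncertain.

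Together the 66 genes took 0.545%, 0.545% and 0.606% of the reads on listed genes in the EVX1-Δfs libraries, by replicate number, and 0.500%, 0.587% and 0.531% in those of Del#3. The 95% Wilson intervals, which cover counting error only, were for example 0.542% to 0.549% and 0.496% to 0.504% in the replicate 1 libraries, far narrower than the spread between replicates. The means were 0.566 ± 0.0354% and 0.539 ± 0.0440% (SD, n = 3). Their difference of -0.0262 percentage points was within the spread (two-sided exact permutation test, p = 0.4, where 3 libraries against 3 cannot go below 0.1). By day it was -0.0450, 0.0420 and -0.0757.

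The *Tomm* share was 0.149 ± 0.00664% in EVX1-Δfs and 0.132 ± 0.0117% in Del#3 (SD, n = 3; two-sided exact permutation test, p = 0.2). The *Slc25a* share was 0.277% and 0.263% (exact permutation test, p = 0.6) and the *Timm* share 0.139% and 0.144% (exact permutation test, p = 0.9). The 6 genes with the most reads, *Slc25a4*, *Tomm20*, *Slc25a5*, *Timm23*, *Tomm40* and *Slc25a3*, took between 49.4% and 52.6% of the reads on these genes in every library.

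**Figure D3:**
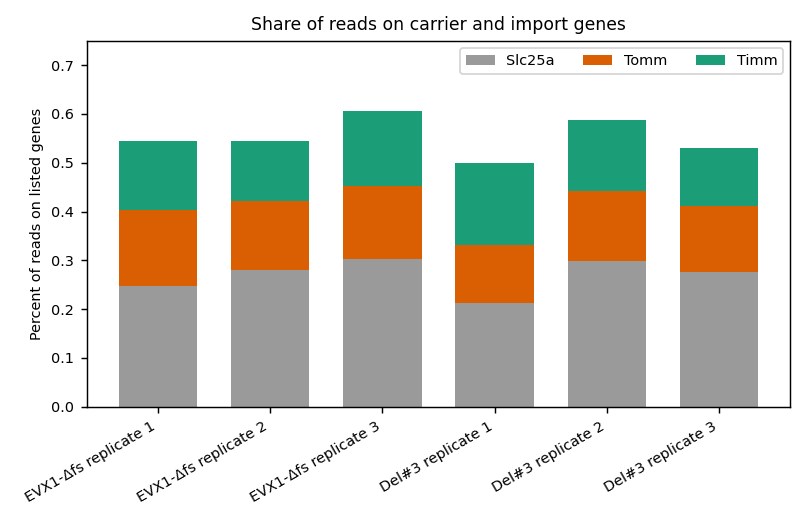
Percent of reads on listed genes that fell on *Slc25a*, *Tomm* and *Timm* genes in each of the 6 libraries, as stacked bars that start at 0. The totals lie between 0.500% and 0.606%, and those of the lines overlap.

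The day of differentiation, taken from the replicate number, went with more of the spread among the 6 libraries than the line did. Anything else that went with the replicate number, such as library depth, cannot be told apart from day. Over the 61 genes, a median of 67.4% of the sum of squares lay between the 3 days and 5.9% between the lines, against 64.4% and 6.7% over all genes tested, with 2 degrees of freedom for day and 1 for line. The part for day exceeded that for line in 53 of the 61 genes, or 86.9%, and in 87.3% of all genes tested. The *Tomm* genes had a lower median for day, 22.4%, with 14.8% for line, and no test of this difference was made.

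After this was seen, a limma F test of day was run beside the line. It called 3 of the 61 genes, or 4.92%, against 4.24% of all genes tested, so in this test the share was near the background. The 3 were *Slc25a21*, *Timm8b* and *Tomm7*. The count was not stable, since it was 0 with TMM factors or with totals for scaling, where 2.59% and 2.46% of all genes were called. It was 1, or 1.64%, with edgeR's quasi-likelihood F test, against 3.58% of all genes, and 12, or 19.7%, with DESeq2, against 10.1%. The gene that edgeR called was *Slc25a21*, so *Timm8b* and *Tomm7* were not called there. Leaving out EVX1-Δfs replicates 1, 2 and 3 gave 1, 13 and 17, or 1.59%, 20.6% and 27.4%, against 1.5%, 16.9% and 18.3% of all genes. Leaving out Del#3 replicates 1, 2 and 3 gave 0, 10 and 19, or 0%, 16.4% and 30.2%, against 1.62%, 11.1% and 24.2%.

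*Slc25a21*, the 2-oxodicarboxylate carrier, had 32, 104 and 91 normalized counts in EVX1-Δfs and 31, 108 and 88 in Del#3. The lines were nearly equal on each day, and replicate 1 was the lowest in both (limma F test of day, adjusted p = 0.0387). *Timm8b* had 570, 963 and 1371 in EVX1-Δfs and 292, 1227 and 1056 in Del#3 (adjusted p = 0.0415), and its log2 fold change between the lines was -0.33 (SE 0.51). *Tomm7*, a small TOM subunit, had 887, 1492 and 1908 against 548, 1717 and 1430 (limma F test of day, adjusted p = 0.0429). In each, both replicate 1 libraries lay below the other 4.

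Other genes had like or opposite differences without an adjusted p under 0.05 in limma. In replicate 1 against the mean of replicates 2 and 3, *Timm50* was at -0.93 in EVX1-Δfs and -1.01 in Del#3 on the log2 scale, *Slc25a4* at -0.73 and -1.08, *Timm23* at 0.77 and 1.58, and *Slc25a46* at 1.08 and 0.94. *Timm50*, *Slc25a4*, *Timm23* and *Slc25a46* had adjusted p of 0.0565, 0.097, 0.0948 and 0.0659 by the limma F test of day, and all 4 were among the 12 that DESeq2 called. The replicate 1 libraries were also the deepest of each line, with 15699124 and 12231851 reads. Across 60 of these genes, the mean difference of replicate 1 had a Spearman correlation of -0.28 with GC content and 0.083 with exon length, against -0.37 and 0.34 across 12325 of the genes tested. The log2 fold change between the lines had a Spearman correlation of 0.33 with GC content across the 60 genes and 0.016 across the 12325. The genes share the 6 libraries and are not independent replicates, and the part of depth, GC content and length in these values was not tested.

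**Figure D4:**
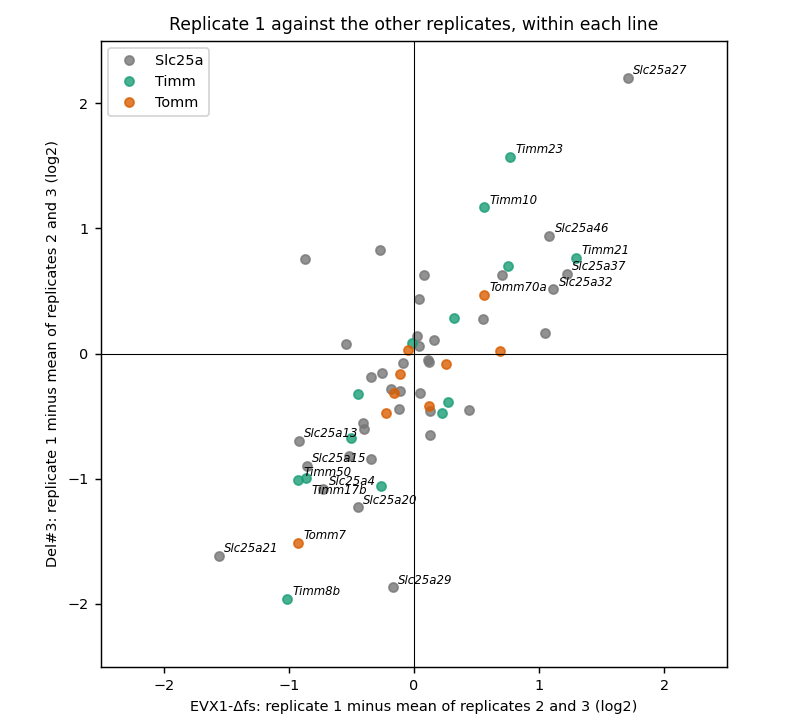
Log2 difference of replicate 1 from the mean of replicates 2 and 3, in EVX1-Δfs (horizontal axis) and in Del#3 (vertical axis), for 60 of the 61 genes tested, with each family in a colour. *Slc25a21*, *Timm8b* and *Tomm7* lie at the lower left and *Timm23* at the upper right.

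Genes outside the 3 families were taken as a list of 29 tested genes. Most act in import or in the processing and insertion of proteins, such as the matrix chaperone *Hspa9*, processing peptidases and *Samm50*, but the list also holds the porins, the chaperonin genes *Hspd1* and *Hspe1*, the pyruvate carrier genes *Mpc1* and *Mpc2*, and *Ucp2*, a carrier of the same family under another name. Their median log2 fold change in Del#3 against EVX1-Δfs was -0.17, and by day it was -0.31, 0.13 and -0.43. Of the 29 values 26 were negative, against 6394 of all 12891 genes tested, and 0 passed the threshold, against 0.0155% of all genes. All Del#3 libraries lay below all EVX1-Δfs libraries for 3 of the 29, *Dnajc19*, *Grpel2* and *Immp2l*, against 1.8% of all genes tested. *Dnajc19*, a partner of the import motor, had 447, 415 and 697 normalized counts in EVX1-Δfs and 194, 370 and 293 in Del#3, without overlap. Its log2 fold change was -0.87 (SE 0.32, limma, adjusted p = 0.999998, and 0.787 with the replicate block). *Grpel2*, one of a pair of nucleotide exchange factors of that motor, was at -0.43 (SE 0.26), while its paralogue *Grpel1* was at -0.14 (SE 0.36) with overlapping libraries. The value of *Immp2l*, an inner membrane peptidase, was -0.69 (SE 0.43).

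Regulators of mitochondrial biogenesis were a list of 17 tested genes, with a median log2 fold change of -0.10, 9 negative values and 0 past the threshold. *Ppargc1b*, a coactivator of this programme, had 33, 21 and 18 normalized counts in EVX1-Δfs and 35, 42 and 33 in Del#3, a log2 fold change of 0.63 (SE 0.40, limma, adjusted p = 0.999998). *Ssbp1*, which binds single-stranded mitochondrial DNA, was at -0.37 (SE 0.27). Of the factors whose motifs were searched, *Yy1* was at -0.30 (SE 0.28), *Nrf1* at -0.12 (SE 0.29) and *Gabpa* at 0.39 (SE 0.60). *Gabpa* had 397, 99.6 and 156 normalized counts in EVX1-Δfs and 551, 114 and 223 in Del#3, and was highest in replicate 1 of each line. By the limma F test of day, *Gabpa* and *Tfam*, the mitochondrial transcription factor, had adjusted p of 0.0225 and 0.0457, and the other 15 of the 17 did not pass. The same test called 4.24% of all genes tested, and *Romo1* alone among the 29 genes of the import list (limma F test of day, adjusted p = 0.0238). It was chosen after seeing the data, and the share of all genes that it called varied widely over the alternatives.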

How the data were processed

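Poly(A)-selected RNA of D4 EBs was sequenced on an Ion Proton. According to the methods and the submitters' processing notes, the authors aligned reads against mm9, first by TopHat2 and afterwards by TMAP, counted them on genes with HTSeq at standard settings and used DESeq2; versions are not given in the sources used here. The signal values deposited by the authors are counts divided by a size factor per library. Within each library, 100% of values were whole multiples of 1 step (tolerance 0.1 reads), from which read counts were recovered. A shared gene name occurred on 1 row.

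Lines were compared with limma 3.58.1 (R 4.3.3, intensity trend) on log2(normalized count + 1), computed from the deposited values, for genes passing filterByExpr of edgeR 4.0.16 (minimum count 10) on recovered reads, with Benjamini-Hochberg adjustment and a threshold of 0.05. No covariate was used. Fold changes on this scale understate changes of low genes. SDs are over 3 libraries per line. Standard errors and intervals are those of limma with 3 libraries per line, from variances moderated towards a trend over all genes tested.

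Per the series' design text, the lines were differentiated in parallel and each round began on its own day. Replicate numbers were therefore taken to pair the samples, though the labels give no day. Deviations of same-numbered libraries from their group means correlated across genes at 0.74, 0.32 and -0.05 for replicates 1 to 3. The deviations of a gene cancel out within a line, so these 3 values are not independent. They do not test the pairing, and replicate 3 showed no correlation.

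Genes named were those past the threshold, the 6 with the largest fold change, smallest p (with and without the block), most or fewest reads, and a list by role. Other genes named for paralogue pairs, ranges or days were chosen after their values were seen. The values of 1 carrier gene are counted in the totals but not reported here. The genes and lists were chosen with earlier results of these data known.

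Alternatives were TMM or total scaling, pseudocounts of 0.1 and 5, no filter or one of 10 reads in all libraries, edgeR and DESeq2 1.42.0 on recovered reads, the block, and leaving out each library. Scripts were tested on simulated data. RPKM used exon lengths of the GENCODE annotation of NCBIM37 (the assembly of mm9), in which 61 symbols matched, 4 matched through a RefSeq synonym and 1 did not. Genome copies were found with minimap2 2.31-r1302 (at least 50% of the coding transcript at 90% identity).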

Additional observations from a re-analysis of the deposited data

How the results depend on the processing

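The count of carrier and import genes that passed the threshold between the lines was 0 under all 17 alternatives, with 0 to 2 at an unadjusted p under 0.05, in limma, edgeR and DESeq2. With the replicate block, limma called 3 of all genes tested, against 2 without it, and DESeq2 called 18, against 3 without it, and the pairing changed no call for a carrier or import gene. When 1 library was left out, the median log2 fold change ranged from -0.029 to 0.071 for *Slc25a*, -0.25 to 0.017 for *Timm* and -0.30 to -0.12 for *Tomm* genes, so only that of *Tomm* kept its sign. With DESeq2 and edgeR the *Timm* median was -0.093 and -0.076 and the *Tomm* median -0.21 and -0.20. The difference in the share of reads stayed negative, from -0.0501 to -0.00581 percentage points when 1 library was left out (-0.0308 without the 10 genes with the most reads). The number of these genes that differed between days, a test chosen after seeing the data, went from 3 to 0 with TMM factors, 0 with totals, 1 with edgeR and 12 with DESeq2, and from 0 to 19 when 1 library was left out. The share of all genes called was 4.24% at first, 2.59%, 2.46%, 3.58% and 10.1% in these alternatives, and 1.5% to 24.2% with 1 library left out. The cause was not tested.

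Of the 24 genes named by rule and tested, 12 kept their sign throughout, but several were much smaller without 1 library, with -0.028 for *Timm9*, -0.039 for *Tomm70a*, -0.059 for *Timm44*, 0.077 for *Slc25a47* and 0.049 for *Slc25a22* as the values nearest 0. *Timm13* turned from -0.01 to 0.0091 with TMM factors, 0.022 with totals, 0.015 with DESeq2, 0.032 with edgeR and 0.0088 with the block in edgeR, and *Timm22* to -0.0054 with the block in DESeq2. When 1 library was left out, the log2 fold change ranged from -0.26 to 0.71 for *Slc25a29*, -0.25 to 0.10 for *Slc25a3*, -0.47 to 0.13 for *Slc25a4*, -0.46 to 0.098 for *Slc25a5*, -0.27 to 0.46 for *Timm10*, -0.25 to 0.21 for *Timm13*, -0.42 to 0.20 for *Timm17b*, -0.23 to 0.16 for *Timm22*, -0.38 to 0.56 for *Timm23*, -0.37 to 0.28 for *Timm50*, -0.71 to 0.32 for *Timm8b* and -0.15 to 0.21 for *Tomm40*. None of these values passed the threshold. With no filter on low counts, the 5 genes with 0 to 24 reads per library were tested too and none passed, at a depth where a count of 0 allows up to 0.332 RPM in the library with the fewest reads.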
